A study of Homo sapiens with 8 samples.

Results

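The regions described here are places where SOX2, OCT4 and NANOG each had a peak in the human embryonal carcinoma line NT2/D1 and no factor had a peak in the embryonic stem cell line H9. They were selected on called peaks alone: any overlap of 1 bp or more joined peaks of the 6 lists into a region, and a region on chromosomes 1 to 22 or X was kept when it held a peak of each NT2/D1 list and of no H9 list. This left 332 of the 1957 NT2/D1 regions with all 3 factors (17.0%), and 0.225% of the 147878 merged regions on those chromosomes. The other 1625 NT2/D1 three-factor regions held an H9 peak: 407 held peaks of 1 or 2 H9 lists and 1218 held peaks of all 3.

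Chromatin immunoprecipitation with SOLiD sequencing (ChIP-seq) had been done for the 3 factors and for an IgG background in both lines, with 1 library for each factor and line. NT2/D1 cells are described in the labels as embryonal carcinoma cells from a human germ cell tumour, and H9 as embryonic stem cells. Only called peaks were available, with no expression values, so the identity of the lines could not be checked against marker genes. With no replicates and with peak calls choosing the regions, no test between the lines was made. The intervals given with shares are 95% Wilson intervals and reflect counting error alone.

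The libraries were not equally deep. The NT2/D1 factor libraries held 10218752 (OCT4) to 23160564 (SOX2) unique tags, and those of H9 54046559 to 77649240. One IgG library, of 2937004 unique tags, served as background for both NT2/D1 SOX2 and NANOG, and another, of 6479071, for OCT4. The weakest peaks called held 5 tags in NT2/D1 OCT4 and 8 in the other NT2/D1 lists, against 13 to 16 in H9. In NT2/D1 the library titled OCT4 has NANOG in its source name and the library titled NANOG has OCT4. Titles were followed here, and under the source names each NT2/D1 value of OCT4 given below would be one of NANOG, and the reverse. How far depth and calling settings decide which regions have no H9 peak was not tested.

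OCT4, SOX2 and NANOG are the transcription factors at the core of the pluripotency network. OCT4, a POU factor, binds octamer letters and pairs with SOX2, an HMG-box factor, on adjoining DNA letters. NANOG is a homeobox factor that joins them at many enhancers, so that in pluripotent cells the 3 factors are often found on the same short stretch of DNA, far from genes as well as near them.

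Promoters hold a larger share of these regions than of three-factor regions with an H9 peak, as the distances below show, and their sequences are given first. Of the 35 regions that overlapped a transcription start site (TSS), 28 had their gene in the RefSeq promoter table (GRCh38.p14), matched by symbol. The start in that table was not checked against the start used in the deposited lists. The following 4 promoters are those with an OCT4 summit, the point of highest signal in the peak, within 22 bp of the TSS, and they show how the number of CG varied among them. Each line gives the 250 bases before the start, 5′ to 3′ on the gene's strand, with every CG in capitals.
HSP90AB1: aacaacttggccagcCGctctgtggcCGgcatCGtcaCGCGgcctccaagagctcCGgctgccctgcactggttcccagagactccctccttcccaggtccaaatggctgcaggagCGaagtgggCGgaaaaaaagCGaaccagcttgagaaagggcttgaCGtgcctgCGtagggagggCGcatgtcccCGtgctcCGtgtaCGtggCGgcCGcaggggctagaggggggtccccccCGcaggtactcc
HNRNPA1L2: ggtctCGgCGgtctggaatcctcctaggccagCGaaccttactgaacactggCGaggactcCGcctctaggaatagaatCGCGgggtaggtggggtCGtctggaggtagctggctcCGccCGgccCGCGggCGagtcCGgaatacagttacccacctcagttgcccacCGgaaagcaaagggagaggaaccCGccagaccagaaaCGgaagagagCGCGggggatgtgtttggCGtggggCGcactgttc
MRPS14: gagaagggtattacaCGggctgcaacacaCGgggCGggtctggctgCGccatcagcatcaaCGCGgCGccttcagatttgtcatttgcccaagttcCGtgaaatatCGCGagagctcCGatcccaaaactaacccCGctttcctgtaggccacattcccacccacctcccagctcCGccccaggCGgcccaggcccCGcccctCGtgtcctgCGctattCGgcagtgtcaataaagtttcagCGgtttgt
PALM3: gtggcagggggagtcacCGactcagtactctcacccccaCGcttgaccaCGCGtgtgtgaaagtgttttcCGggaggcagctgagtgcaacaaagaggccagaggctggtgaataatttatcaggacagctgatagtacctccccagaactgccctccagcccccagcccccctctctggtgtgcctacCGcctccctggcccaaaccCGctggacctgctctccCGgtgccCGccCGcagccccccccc
HSP90AB1 (plus strand of chromosome 6), the constitutive cytosolic HSP90 chaperone, has 18 CG in these bases. HNRNPA1L2 (plus strand of chromosome 13) has 21. MRPS14 (minus strand of chromosome 1), a protein of the small mitochondrial ribosome subunit, has 19. PALM3 (minus strand of chromosome 19), a paralemmin gene, has 10. None of the searched motifs occurs in any of these stretches.

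The next 3 promoters are those with exact octamer or SOX letters on either strand. Capitals mark CATTGT in the first and second, and ATTTGCAT, the reverse complement of the octamer ATGCAAAT, in the third.
LPAR5: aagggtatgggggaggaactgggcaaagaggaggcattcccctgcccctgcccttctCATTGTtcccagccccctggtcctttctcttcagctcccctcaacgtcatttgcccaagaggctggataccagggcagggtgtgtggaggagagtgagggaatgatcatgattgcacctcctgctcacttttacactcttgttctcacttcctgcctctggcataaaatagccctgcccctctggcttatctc
LINC00323: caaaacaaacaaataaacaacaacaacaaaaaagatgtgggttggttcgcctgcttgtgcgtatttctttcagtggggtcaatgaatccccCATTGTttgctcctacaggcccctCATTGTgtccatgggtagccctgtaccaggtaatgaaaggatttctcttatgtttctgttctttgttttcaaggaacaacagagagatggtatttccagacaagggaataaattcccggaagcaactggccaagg
CRYZL1: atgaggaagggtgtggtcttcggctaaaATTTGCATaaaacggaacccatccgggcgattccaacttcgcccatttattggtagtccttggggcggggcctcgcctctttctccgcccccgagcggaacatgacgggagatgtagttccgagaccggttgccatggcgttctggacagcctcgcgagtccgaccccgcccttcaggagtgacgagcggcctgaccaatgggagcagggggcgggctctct
LPAR5 (minus strand of chromosome 12), which encodes a lysophosphatidic acid receptor, and LINC00323 (minus strand of chromosome 21), a long non-coding RNA gene, are poor in CG, with 1 and 3 in these bases. CRYZL1 (minus strand of chromosome 21) has 21 CG. Except for LINC00323, these 7 promoters were chosen after their values were seen.

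Over the whole 300 bases of the table (250 before the start and 50 after), the 28 promoters had a median GC content of 61.3% and a median of 21 CG, against 58.3% and 14 in all 27305 promoters of the table. The promoters under all NT2/D1 OCT4 peaks that overlap a TSS had nearly the same values, 61.3% and 22, so promoters under OCT4 peaks at large had this composition too. CATTGT was found in 2 of 28 promoters (7.14%, interval 1.98 to 22.6) against 11.0% of all promoters. The octamer ATGCAAAT was found in 1 of 28 (3.57%, 0.633 to 17.7) against 1.80%, and its looser form ATGNNAAT, which includes it, in 2 of 28 against 11.6%. The SOX letters joined to the start of an octamer, with 1 free base between, and TAATGG, a homeobox motif, were found in 0 of 28, against 0.337% and 6.87% of all promoters. With 28 promoters these shares cannot be told from the background, and absent letters say nothing about binding elsewhere in the peaks, whose own sequence was not used here.

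Within a region, the 3 NT2/D1 summits lay farther apart where H9 had no peak. The distance between the outermost of the SOX2, OCT4 and NANOG summits had a median of 251 bp in the 332 regions, with a range of 4 to 1343. It was 90 bp in regions with peaks of 1 or 2 H9 lists and 43 bp in those with peaks of all 3. All 3 summits fell within 50 bp in 39 of 332 regions (11.7%, 8.71 to 15.7), against 34.9% and 57.5% in the other classes. Within 200 bp they fell in 146 (44.0%, 38.7 to 49.4), against 67.3% and 88.6%.

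**Figure D1:**
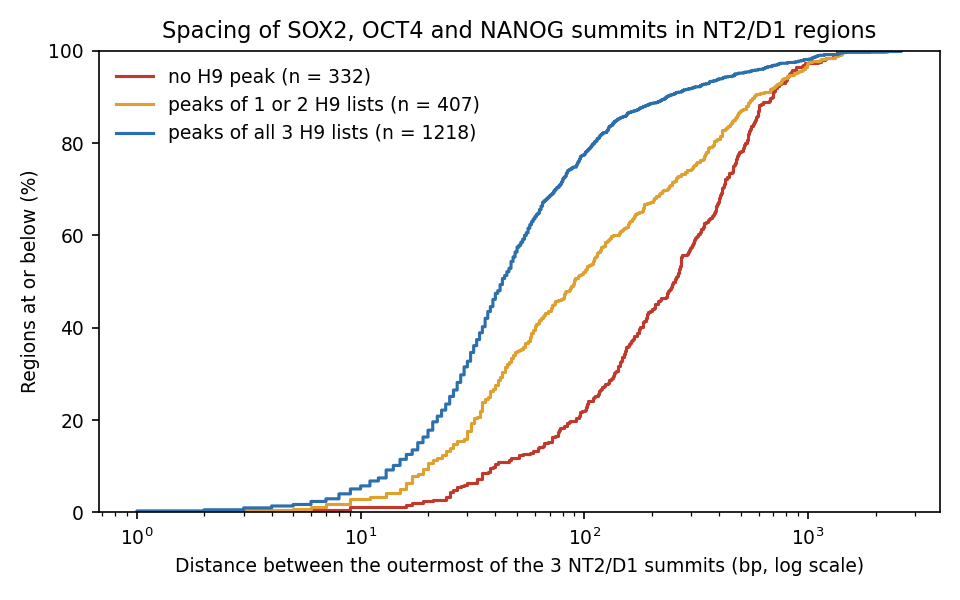
Share of NT2/D1 three-factor regions (vertical axis, percent) whose outermost SOX2, OCT4 and NANOG summits lie no farther apart than the distance on the horizontal axis (bp, log scale), for regions with no H9 peak (red), peaks of 1 or 2 H9 lists (orange) and of all 3 (blue). The medians are 251, 90 and 43 bp, and the 3 curves meet at about 1 kb.

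All 3 pairs of factors showed the wider spacing. The median gap was 141 bp between the SOX2 and OCT4 summits, 120.5 bp between SOX2 and NANOG, and 134 bp between OCT4 and NANOG. In regions with all 3 H9 lists the same gaps were 25, 26 and 29 bp. The stretch covered by the NT2/D1 peaks had a similar median length in both classes, 767 and 653 bp.

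Peak strength differed between the classes, and the spacing was also read within groups of like strength. Each peak was ranked by score within its own list, and a region was given the lowest of its 3 percentiles. Where that percentile was under 25, the median distance between outermost summits was 246 bp in 138 regions without an H9 peak and 103 bp in 200 regions with one. At 75 or more it was 177 bp in 39 regions and 40 bp in 941. Strength still differed inside the groups: at 75 or more the median lowest percentile was 84.9 without an H9 peak and 94.4 with one, and under 25 it was 11.4 and 11.2. The part of strength in the spacing was not tested further. Across regions, distance between summits and lowest percentile had a Spearman rho of 0.02 in the 332 regions and -0.33 in the 1625 with an H9 peak, a description over regions that share 3 libraries. In the strongest group, 12 of 39 regions (30.8%, 18.6 to 46.4) had the summits within 50 bp, against 62.1% of those with an H9 peak.

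The regions without an H9 peak lay nearer to genes. They overlapped a TSS in 35 of 332 cases (10.5%, 7.68 to 14.3), against 6.39% of regions with 1 or 2 H9 lists and 0.985% of those with all 3. In the NT2/D1 lists as a whole, 0.516% of SOX2, 4.33% of OCT4 and 0.661% of NANOG peaks overlapped a TSS. Within 1 kb of a TSS there were 58 regions (17.5%, 13.8 to 21.9), against 9.09% and 2.71% in the other classes, and 3.44%, 12.0% and 4.44% of all SOX2, OCT4 and NANOG peaks. Without the widest 1% of peaks in each list the share within 1 kb was 12.4%, and 3.82% in regions with an H9 peak. Within 50 kb there were 203 (61.1%, 55.8 to 66.2), against 54.5% and 42.2%, and 47.8%, 54.4% and 52.0% of all SOX2, OCT4 and NANOG peaks. A region counts by the nearest of its 3 or more peaks, which gives it more chances than a single peak has.

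**Figure D2:**
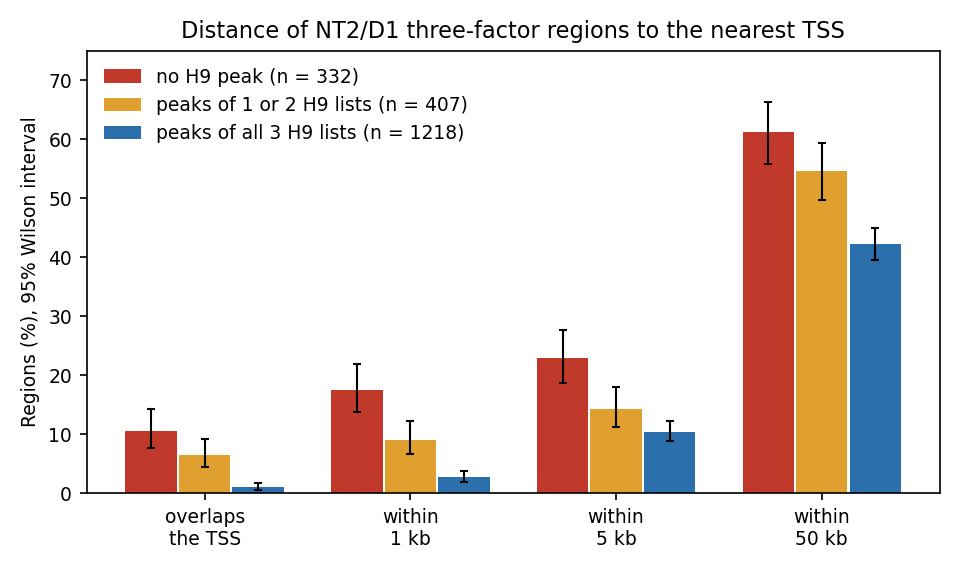
Share of NT2/D1 three-factor regions (percent, bars from 0, error bars are 95% Wilson intervals) that overlap a TSS or lie within 1, 5 or 50 kb of one, for regions with no H9 peak (red), 1 or 2 H9 lists (orange) and all 3 H9 lists (blue). In each group of bars the red bar is the highest, from 10.5% at the TSS to 61.1% within 50 kb.

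Among the 35 regions at a TSS, the peak of the library titled OCT4 most often covered it; under the source names this library would be NANOG. An OCT4 peak overlapped the TSS in 31 regions, a SOX2 peak in 18, a NANOG peak in 17, and all 3 in 11. The position of the TSS could be recovered for 33 of them. The OCT4 summit lay a median of 129 bp from it, the NANOG summit 236 bp and the SOX2 summit 330 bp. OCT4 was the nearest of the 3 in 22 of 33 regions (66.7%, 49.6 to 80.2), NANOG in 7 and SOX2 in 4, where a tie of SOX2 and OCT4 at HSP90AB1 counts for SOX2. Of the 38 three-factor regions at a TSS that held an H9 peak, 34 had a recovered position. Their medians were 102 bp for OCT4, 178.5 bp for NANOG and 261.5 bp for SOX2, and OCT4 was nearest in 18 (52.9%, 36.7 to 68.5), SOX2 in 9 and NANOG in 7, where a tie at PPIH counts for SOX2. The intervals of the OCT4 shares overlap, and the OCT4 list as a whole holds more TSS peaks than the others.

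**Figure D3:**
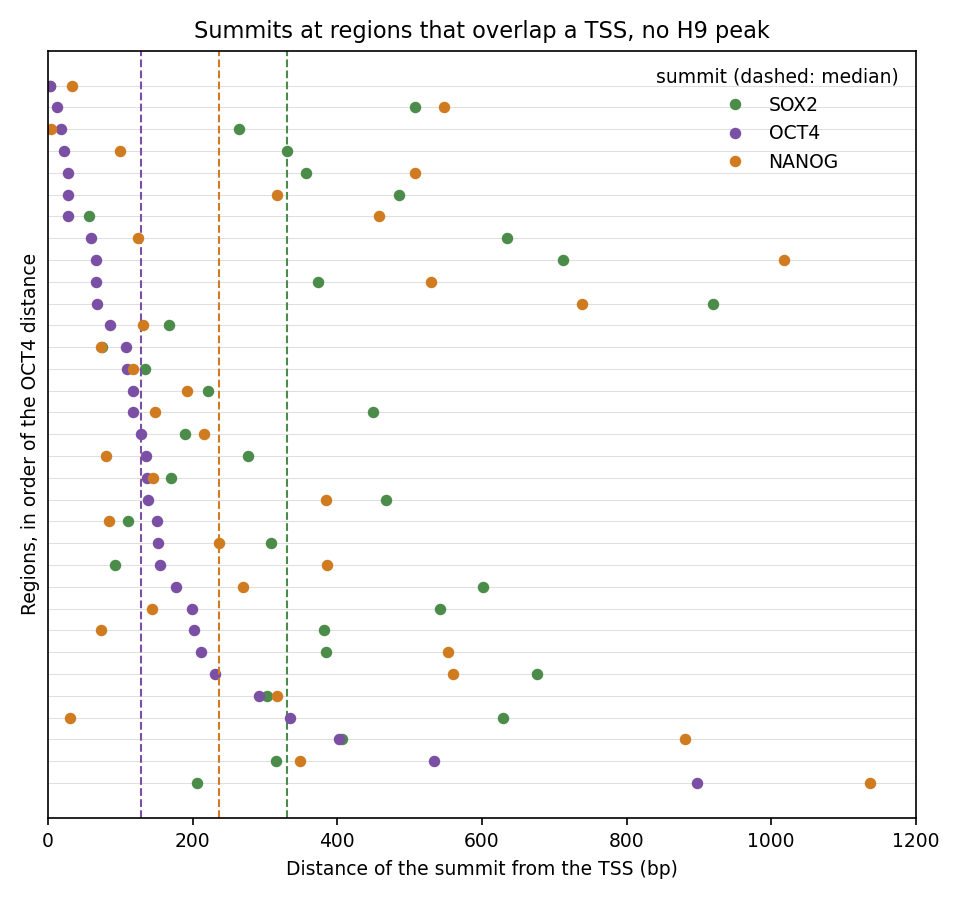
Distance in bp (horizontal axis) of the SOX2 (green), OCT4 (purple) and NANOG (orange) summits from the TSS, for the 33 regions without an H9 peak that overlap a TSS of known position, 1 region per row in order of the OCT4 distance. Dashed lines mark the medians of 129 bp for OCT4, 236 bp for NANOG and 330 bp for SOX2.

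Individual TSS regions differed in how the summits lay. At HSP90AB1 (chr6:44214603-44215108) the SOX2, OCT4 and NANOG peaks held 11, 8 and 8 tags and their summits lay 2, 2 and 33 bp from the TSS, so all 3 coincided with it. At DDX5 (chr17:62501860-62502484), an RNA helicase gene, the counts were 9, 17 and 9 tags and the summits 221, 117 and 192 bp away. The MRPS14 region (chr1:174991851-174993302) held 20, 37 and 11 tags, with the OCT4 summit at 22 bp and the SOX2 summit at 330 bp. OCT4 was thus nearest at DDX5 and MRPS14, and level with SOX2 at HSP90AB1. These 3 genes were chosen after their values were seen. Among the 35 regions, 4 covered the start sites of 2 genes: TMEM59 with TCEANC2, CCDC77 with KDM5A, SDHC with LOC642502, and SNORD46 with SNORD55. KDM5A encodes a histone H3 lysine demethylase, and SDHC a subunit of succinate dehydrogenase.

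The rule for naming genes also took the TSS regions of highest lowest percentile. At RPL32 (chr3:12882445-12883505), a ribosomal protein gene, SOX2, OCT4 and NANOG had 25, 25 and 19 tags at folds over background of 11.3, 10.1 and 7.79, with the summits within 33 bp. At TAF12 (chr1:28968831-28970187), a subunit of the general factor TFIID, the counts were 22, 54 and 25 tags and the folds 6.71, 7.37 and 10.8. The 54 OCT4 tags at TAF12 were the highest OCT4 count among the 332 regions. At LINC00323 (chr21:42518767-42520136), whose promoter is printed above with its pair of CATTGT letters, the counts were 48, 23 and 26 tags, and the NANOG summit lay 30 bp from the TSS against 629 bp for SOX2. At the TMEM59 start (chr1:54518153-54519770) the counts were 20, 39 and 17 tags, and there SOX2 rather than OCT4 was nearest.

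The strongest regions, by the lowest of the 3 percentiles, formed a mixed group in spacing and position. Among them, a region 12313 bp from the TSS of KIF15 (chr3:44815521-44815936), a mitotic kinesin gene, had 20, 18 and 18 tags at folds of 11.3, 13.0 and 13.1, all within 27 bp. Its nearest H9 peak was 589 bp away.

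Several of the strongest were compact and far from any gene start. The region nearest to RPA4 (chrX:96894289-96894885), a gene for a replication protein A subunit, lay 755278 bp away, with folds of 12.5, 17.8 and 18.1 and the summits within 38 bp. That of FOXI3 (chr2:88654958-88655476), a forkhead factor gene, lay 96577 bp away, with folds of 15.6, 17.7 and 19.4 and the summits within 9 bp. Its NANOG fold was the highest among the 332 regions. That of MC3R (chr20:54792886-54793392), a melanocortin receptor gene, lay 30395 bp away and had the highest SOX2 fold, 21.7, beside 11.5 for OCT4 and 16.7 for NANOG, with the summits within 38 bp. That of TGFA (chr2:70860901-70861398), a gene for an EGF receptor ligand, lay 79796 bp away, with folds of 11.3, 14.99 and 8.96 within 19 bp. A region 235699 bp from SOX21 (chr13:95600088-95600722), a SOX-family factor gene, had 42, 17 and 25 tags, and its summits spread over 144 bp. In these regions the folds were above 8 for every factor.

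Others were wide. At FERRY3 (chr12:4647225-4648816), a gene for a subunit of an endosomal complex, the region overlapped the TSS with 55, 39 and 16 tags, and its summits spread over 851 bp. At IFFO1 (chr12:6656851-6658766), an intermediate filament family gene, it overlapped the TSS with 25, 18 and 49 tags over 1343 bp, the widest spread of the 332, which the region nearest to SEC22B shared. At SH3D21, RBSN and BPGM, whose TSS were also overlapped, the summits spread over 576, 534 and 463 bp. RBSN encodes an endosomal RAB effector and BPGM a mutase of red-cell glycolysis. Each of these 5 regions at a TSS had its summits spread over at least 463 bp. The regions at LMNTD1, STAG3L4 and ARRB2, beyond 9 kb from a TSS, had spreads of 25, 26 and 76 bp, while that at HECW1, 84913 bp from a TSS, had 408 bp.

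**Figure D4:**
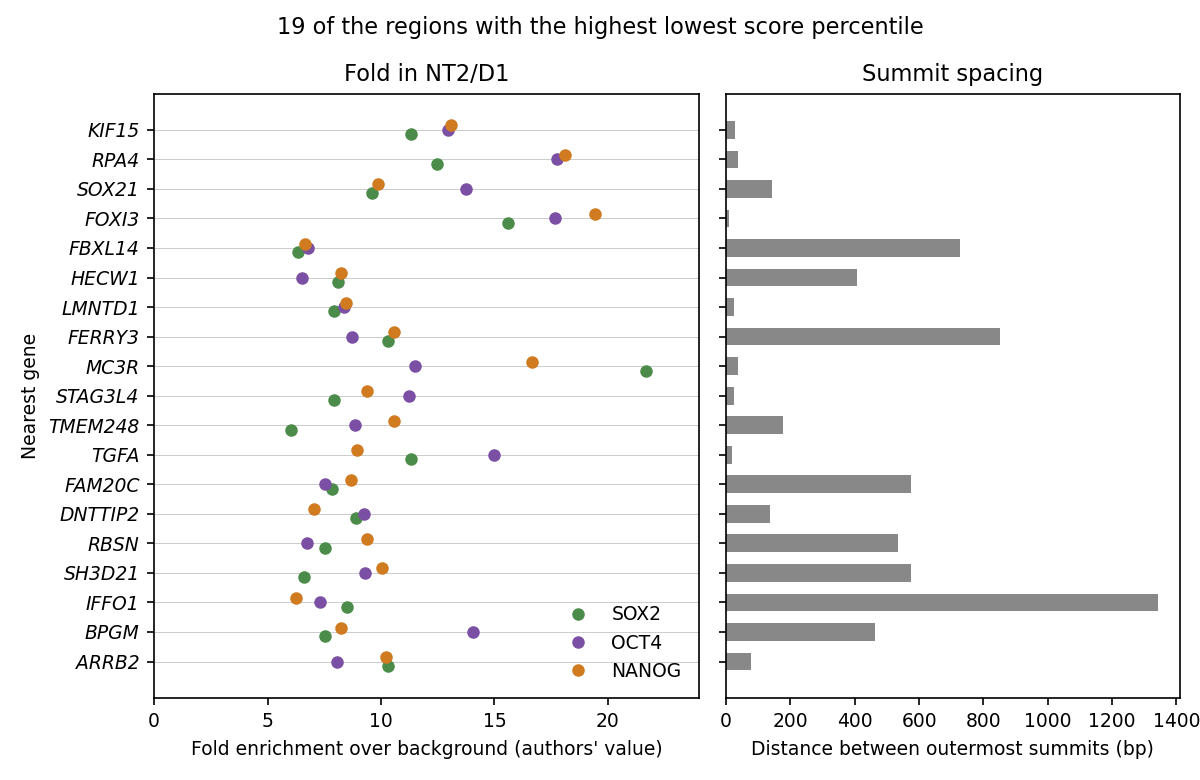
19 of the regions without an H9 peak whose lowest within-list percentile is highest, by nearest gene: left, the authors' fold over background of SOX2 (green), OCT4 (purple) and NANOG (orange) in NT2/D1; right, bars of the distance in bp between the outermost summits. MC3R has the highest SOX2 fold (21.7), FOXI3 the highest NANOG fold (19.4) and IFFO1 the widest spread (1343 bp).

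Over all 332 regions the peaks were modest. A region held a median of 18 SOX2 tags (range 8 to 105), 13 OCT4 tags (5 to 54) and 13 NANOG tags (8 to 126). The medians were 21, 16 and 18 tags with 1 or 2 H9 lists, and 27, 24 and 21 where all 3 H9 lists had a peak. Median folds over background were 6.37, 7.17 and 7.23. They were 7.55, 9.89 and 8.61 with 1 or 2 H9 lists, and 11.3, 14.8 and 10.6 with all 3. Since calling is part of the rule, these values describe the regions and support nothing.

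By rank within its own list, OCT4 was the weakest of the 3 factors in these regions, though its median fold (7.17) was above that of SOX2 (6.37). The median within-list percentile was 77.0 for SOX2, 73.2 for NANOG and 58.6 for OCT4. It was 88.3, 90.4 and 87.3 with 1 or 2 H9 lists, and 97.1, 96.4 and 96.7 where all 3 H9 lists had a peak. OCT4 had the lowest percentile in 169 regions (50.9%). With 1 or 2 H9 lists OCT4 was also most often lowest, in 163 of 407 regions (40.0%). With all 3 H9 lists NANOG was most often lowest, in 39.5% against 33.7% for OCT4. Among the 332 regions OCT4 was highest in 67 (20.2%), SOX2 in 140 (42.2%) and NANOG in 125 (37.7%). Under the source names OCT4 would be highest in 37.7% and NANOG in 20.2%. Exceptions with a strong OCT4 peak were the regions nearest to NEGR1 (chr1:72203426-72204238), a neuronal adhesion molecule gene, with an OCT4 fold of 25.97 and a NANOG fold of 5.63, and to ZNF99 (chr19:22979784-22980522), a zinc finger gene, with an OCT4 fold of 21.2 and a NANOG fold of 4.96. Both were named after their values were seen.

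The strengths of the factors were only loosely tied to each other across the 332 regions. Tags of SOX2 and NANOG, whose lists share an IgG library, had a Spearman rho of 0.57, those of SOX2 and OCT4 0.35, and those of OCT4 and NANOG 0.34. The same values in the 1625 regions with an H9 peak were 0.66, 0.54 and 0.42. For percentiles they were 0.23, 0.06 and 0.10 without an H9 peak and 0.59, 0.46 and 0.33 with one.

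The genes near these regions were counted against 12 gene lists. Of the genes listed beside any peak, 273 of 19704 (1.39%) had a region without an H9 peak within 50 kb of the TSS, and 4.52% had a three-factor region with an H9 peak. In the core pluripotency list 2 of 34 genes had one, LIN28A and MYCN, while 18 of 34 had a three-factor region with an H9 peak. Of 36 WNT genes 1 did (WNT5B), and of 16 immune genes, listed as a control, 1 did (LYZ). The other 9 lists had 0: Nodal, TGF-beta and BMP (of 32), FGF and ERK (of 26), neuroectoderm (of 39), mesendoderm (of 23), trophectoderm (of 16), germ cell (of 23), chromatin regulators (of 33), HOX (of 38) and hepatocyte genes (of 18). At a background of 1.39% fewer than 1 gene would be found in a list of that size, so these counts set no list apart.

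The 4 genes in the lists differed in how the region lay. LIN28A encodes an RNA-binding protein that blocks let-7 maturation. Its region (chr1:26738718-26739824) lay 1450 bp from the TSS, with 22 SOX2, 34 OCT4 and 17 NANOG tags at folds of 5.10, 6.99 and 6.04, and 1527 bp from the nearest H9 peak. MYCN encodes a MYC-family factor, and its region (chr2:16125132-16126326) lay 44450 bp from the TSS with 43, 11 and 26 tags at folds of 8.23, 6.39 and 11.5. WNT5B, a WNT ligand gene, lay 23170 bp from a region (chr12:1701519-1703051) that was nearer to FBXL14, an F-box protein gene, at 280 bp. That region had 47, 49 and 35 tags, and its summits spread over 726 bp. LYZ, the lysozyme gene, lay 5605 bp from a region (chr12:69735682-69736528) with 18, 10 and 9 tags. All 4 genes had H9 peaks of SOX2, OCT4 and NANOG within 50 kb, and MYCN also had a three-factor region with an H9 peak.

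The distance to H9 peaks was set beside that of other NT2/D1 regions without an H9 peak. Of the 273 genes with such a region within 50 kb, 214 (78.4%) also had an H9 peak of some factor within 50 kb, against 73.9% of all 19704 genes. The nearest H9 peak lay a median of 15945 bp away, with a range of 100 to 297589. It lay within 10 kb in 120 regions (36.1%, 31.2 to 41.4) and within 50 kb in 277 (83.4%). For the 86892 NT2/D1 regions of a single factor without an H9 peak, the median was 18415 bp, and the shares were 32.8% within 10 kb and 81.5% within 50 kb. The nearest H9 peak was one of NANOG for 137 regions, of OCT4 for 124 and of SOX2 for 71. This is also the order of the H9 list lengths, with 33895 NANOG, 29575 OCT4 and 19349 SOX2 peaks, so the counts set no factor apart. Another region without an H9 peak lay within 10 kb for 6 regions (1.81%) and within 100 kb for 37 (11.1%). A background for these neighbour counts was not worked out.

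At the edge of the rule, the regions just inside by distance were those nearest to LRRC28, USP33 and RGS16, at 100, 187 and 198 bp from an H9 peak, and the weakest by percentile were at SDHC, SNX27 and LRRC28, with scores of 30.02, 30.07 and 30.05 beside a threshold of 30. Just outside, among regions with peaks of a single H9 list, were those nearest to FSCN1, DUSP10 and POT1. Their overlap was 112, 268 and 284 bp, summed over every pair of an NT2/D1 and an H9 peak. Bases under several NT2/D1 peaks thus count more than once.

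Chromosome 1 held 97 of the 332 regions (29.2%, 24.6 to 34.3), against 13.2% of the three-factor regions with an H9 peak. All NT2/D1 SOX2 and NANOG peaks were on chromosome 1 in 17.4% of cases each, and OCT4 peaks in 11.7%. Chromosome 7 held 54 (16.3%) against 8.43%, chromosome 21 held 17 (5.12%) against 1.66%, and chromosome 19 held 11 (3.31%) against 0.8%. Of all NT2/D1 SOX2, OCT4 and NANOG peaks, 10.9%, 7.58% and 10.8% were on chromosome 7, 2.74%, 1.86% and 2.69% on chromosome 21, and 2.01%, 3.17% and 2.68% on chromosome 19, so that chromosome 19 was close to its OCT4 background. Chromosome 12 held 33 (9.94%) against 7.08%, near its share of all SOX2 (9.09%) and NANOG peaks (8.69%) and above that of OCT4 peaks (6.72%). Of the three-factor regions on a chromosome, the share without an H9 peak was highest on chromosome 19, at 11 of 24 (45.8%, 27.9 to 64.9). No region lay on chromosomes 14 and 18, which held 33 and 27 three-factor regions (upper limits 10.4% and 12.5%). Chromosomes 5, 6 and 8 had 2 each, of 68, 70 and 75. The share of the 332 regions within 1 kb of a TSS was 24.7% (17.2 to 34.2) on chromosome 1 and 14.5% on the others. Regions with an H9 peak also had a higher share on chromosome 1, 7.94% against 3.76%. In the 332 regions the median distance between outermost summits was 253 bp on chromosome 1 and 248 bp on the others. The wide spacing was thus found on chromosome 1 and elsewhere alike.

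**Figure D5:**
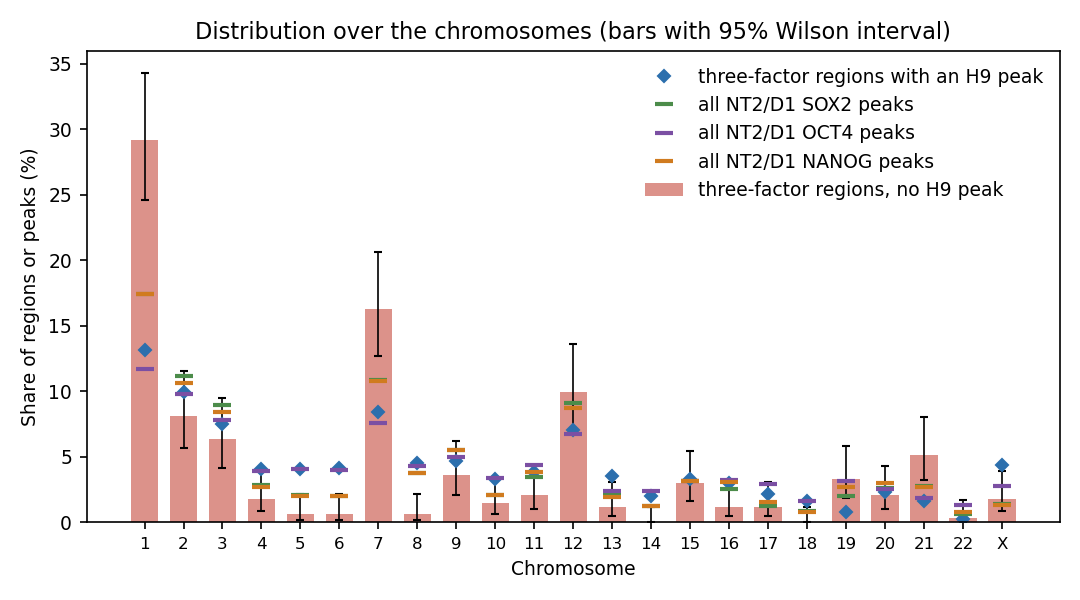
Share (percent) of the 332 regions without an H9 peak on each chromosome (red bars, 95% Wilson intervals), beside the share of the 1625 three-factor regions with an H9 peak (blue diamonds) and of all NT2/D1 peaks of SOX2, OCT4 and NANOG (green, purple and orange dashes). Chromosomes 1, 7, 12, 19 and 21 stand above their diamonds and above all 3 dashes.

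Chromosome 12 was uneven along its length. In its first 35 Mb, 28 of 80 three-factor regions had no H9 peak (35%, 25.5 to 45.9), and beyond 35 Mb 5 of 68 (7.35%, 3.18 to 16.1). Its first 10 Mb held 17, the highest count of any 10-Mb window, including those at FERRY3, FBXL14, IFFO1, LPAR5 and CCDC77. The same window held 20 three-factor regions with an H9 peak. The next windows by count were 110 to 120 Mb of chromosome 1 and 40 to 50 Mb of chromosome 21, which holds LINC00323, with 9 each. Beside these they held only 6 and 4 three-factor regions with an H9 peak. By share without an H9 peak, both thus stood above the chromosome 12 window. The 35-Mb boundary was chosen after the counts were seen, and what sets these stretches apart was not tested.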

How the data were processed

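The deposited peak lists of 6 ChIP-seq libraries were used, 1 for each of SOX2, OCT4 and NANOG in each line. The 2 IgG samples were not analysed on their own. The authors called peaks with MACS for each library against an IgG library, at a p-value cutoff of 0.001 and with a tag size of 50, per the file headers. MACS used a band width of 2000 for H9 but 200 for NT2/D1, with a model fold of 5 for NT2/D1 OCT4 and 3 elsewhere, per the file headers. Aligner and MACS version are not given in the sources used here, and coordinates are in hg19, per the submitters' processing notes.

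The deposited tag count is the whole number of tags in a peak, not normalized. The deposited fold, a ratio over background, comes from the authors. Their deposited FDR, in percent, was not used to choose or rank regions. It rose with the score in NT2/D1 SOX2 and NANOG (rho 0.99998 and 0.999986). It fell with the score in NT2/D1 OCT4 (-0.991) and in H9 SOX2, OCT4 and NANOG (-0.980, -0.950 and -0.890). The cause was not tested. The deposited score, whose column name had been overwritten, never fell below 30 and was taken for the p-value on a negative log10 scale, times 10. It was used only to rank peaks within a list, and all of these are the authors' values. Genes and distances were those of the deposited lists, measured from the peak's edge to the TSS.

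Libraries were grouped by title. Where a region held several peaks of a factor, the one with the highest score gave its values and summit. Symbols came from RefSeq accessions (23834 of 25014 matched), with RefSeq's GRCh38.p14 table giving names but no coordinates. A TSS position was worked out from peak distances if 2 or more of them pointed to it. The merging was tested on simulated peaks. Regions and gene lists were chosen with earlier results of these data known. Named genes are those nearest to the 20 regions with the highest lowest percentile and to the 10 with the shortest TSS distance (ties by percentile), those of the gene lists, and those at the edge of the rule. A result at a gene this rule names is not reported here. Other names are said to be chosen after their values were seen. Shares carry 95% Wilson intervals. Alternatives were stricter or equal-length lists, closer summits, H9 margins of 1 and 10 kb, lists without the widest 1% of peaks, merging at 100 bp, ranks by fold and exchanged OCT4 and NANOG libraries. Python 3.11.15, numpy 2.4.6, pandas 2.3.3 and scipy 1.17.1 were used.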

Additional observations from a re-analysis of the deposited data

How the results depend on the processing

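Over 10 alternative settings, 100 of 147 recomputed values moved by no more than their counting interval and 47 moved further. The number of regions has no such interval and was judged by a fixed fold band instead. Some of the 100 could not move under their setting. These are the shares in regions with an H9 peak under the H9 margins, and the SOX2 share with OCT4 and NANOG exchanged. The number of regions (332, or 17.0% of three-factor regions) was 156 (11.7%) with the upper 50% by score of all lists, 114 (8.55%) when only the NT2/D1 lists were limited so, 122 (9.23%) with lists of equal length, 146 (9.74%) with summits within 200 bp, and 212 (10.8%) with no H9 peak within 10 kb. Summits within 50 bp (11.7%) was 21.8%, 18.4% and 18.0% under the first 3 of these settings, where regions with an H9 peak had 57.8%, 56.8% and 57.8%. Summits within 200 bp (44.0%) were 50.6% with the upper 50% of all lists and 50.7% without the widest 1% of peaks.

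The share within 1 kb of a TSS (17.5%) was 23.8% with equal lists, 13.0% with summits within 200 bp and 12.4% without the widest peaks, where regions with an H9 peak had 2.75%, 3.25% and 3.82%. Within 50 kb (61.1%) it was 51.4% with summits within 200 bp. SOX2 was strongest (42.2%) in 33.3%, 36.8% and 31.1% with the upper 50% of all lists, of the NT2/D1 lists and equal lists, and NANOG (37.7%) in 44.2%, 43.9% and 43.4%, which put NANOG before SOX2. OCT4 (20.2%) was strongest in 25.4% with equal lists and 25.3% with summits within 200 bp. With the libraries exchanged OCT4 had 37.7% and NANOG 20.2%. Chromosome 12 (9.94%) held 14.1% with the upper 50% of all lists and 6.85% with summits within 200 bp, and chromosome 21 (5.12%) held 2.56% with the upper 50% of all lists. Promoters with CATTGT fell to 0% with summits within 200 bp, and those with ATGCAAAT (1 promoter) to 0% under the upper 50% of all lists or of the NT2/D1 lists, equal lists, summits within 200 bp and merging at 100 bp. The cause of these moves was not tested beyond the smaller number of regions. A motif search around the summits was not run, since no sequence of the files' build was used. No paired analysis was possible because each factor and line had 1 library. The NT2/D1 libraries were shallower than those of H9, and a region counted as without an H9 peak may hold H9 signal below the calling threshold.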

Other observations

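A pair of regions on chromosome 1 combined high tag counts with low folds. The region nearest to SEC22B (chr1:145109289-145112052), a gene for a vesicle SNARE protein, held 105 SOX2 tags and 126 NANOG tags, the most of any for both factors, at folds of 3.74 and 4.23, and 11 OCT4 tags. The region at the TSS of PDE4DIP (chr1:144930347-144932135), a centrosome and Golgi scaffold gene, held 60, 52 and 52 tags at folds of 3.46, 4.85 and 3.52. Their summits spread over 1343 and 952 bp. Other regions with many tags had higher folds, such as FERRY3 with 55 SOX2 tags at a fold of 10.3. These 2 regions were picked after their values were seen.

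Regions with close summits differed in the balance of the factors. The region nearest to C15orf39 (chr15:75432393-75433028) had its 3 summits within 5 bp, with folds of 18.7 for SOX2, 15.7 for NANOG and 9.35 for OCT4. That nearest to NEGR1 had its summits within 30 bp, with 27 SOX2, 32 OCT4 and 9 NANOG tags. The most isolated from H9 peaks was the region nearest to YKT6 (chr7:44253595-44254405), a SNARE gene, 297589 bp from any, with 12, 22 and 10 tags. These too were picked after their values were seen.

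Distance between outermost summits and distance to the nearest TSS had a Spearman rho of -0.25 across the 332 regions and -0.12 across the 1625 with an H9 peak, a description over regions from the same 3 libraries. Regions within 1 kb of a TSS had a median spread of 452.5 bp and those beyond it 235 bp.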
